A study of Mus musculus with 40 samples.

Results

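The kidneys of male mice given TCDD at 0.3 µg/kg were compared with those of mice given the vehicle alone. TCDD (2,3,7,8-tetrachlorodibenzo-p-dioxin) is a persistent environmental contaminant, and the series gave it to mice at 7 doses from 0.03 to 30 µg/kg beside sesame oil, with transcripts measured by bulk RNA sequencing of 1 kidney per library. The comparison takes every library whose labelled dose was 0.3 µg/kg (5 libraries) and every library whose labelled dose was 0 (5 libraries), which is 10 of the 40 libraries of the series. Libraries of the neighbouring doses, 0.03, 0.1 and 1 µg/kg (5 each), are used where a value at 0.3 µg/kg is set beside them. The animals of all groups were male C57BL/6 mice, described as C57BL/6NCrl in the series design, with no engineered allele named. All received 0.1 mL by gavage at intervals of 4 days, 7 times over 28 days; they were 30 days old at the first gavage and 58 days old at collection, so the vehicle mice had the same handling and oil. The labels give 5 mice per dose, only males were studied, and replicates are numbered here in the order of deposition, which pairs no library across groups.

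The aryl hydrocarbon receptor (AhR, gene Ahr) is a transcription factor that waits in the cytoplasm bound to chaperones until a ligand such as TCDD enters it. The bound receptor moves to the nucleus, pairs with Arnt and binds DNA at short motifs with the core GCGTG, near genes such as Cyp1a1, a cytochrome P450 that oxidises aromatic compounds. Its other known targets include Cyp1b1, the TCDD-inducible poly-ADP-ribose polymerase Tiparp, the quinone reductase Nqo1, and the AhR repressor Ahrr, which acts against the receptor. In the kidney, Cyp1a1 is a commonly used sign that a ligand reached the tissue.

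Cyp1a1 (ENSMUSG00000032315) was the only gene of 17345 tested that passed the test at 0.3 µg/kg, which is 0.00577% of them. It rose about 10.4-fold over vehicle, from 2.37 ± 1.25 CPM to 24.7 ± 6.37 CPM (SD, n = 5 each). CPM is the usual count of a gene's reads relative to all gene counts of its library, scaled between libraries, and a gene passed when its p-value from edgeR's quasi-likelihood test, adjusted by the Benjamini-Hochberg method over all genes, was under 0.05. No gene was called lower by this test or by DESeq2 and limma-voom, and 398 genes were lower at an unadjusted p under 0.05, which is 2.29% of those tested.

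The reference promoter of Cyp1a1 is shown with those of the pair of genes next in order of p-value, Neurl3 and Crlf3, and of Ahrr, a known AhR target that did not pass the test. Each window runs from 250 bases before to 50 bases after the annotated start in RefSeq (mouse build GRCm38.p6), read 5′ to 3′ on the gene's strand. Capitals mark GCGTG, searched on both strands, that is also as CACGC.
Cyp1a1 (chr9:57697363-57697662, plus strand): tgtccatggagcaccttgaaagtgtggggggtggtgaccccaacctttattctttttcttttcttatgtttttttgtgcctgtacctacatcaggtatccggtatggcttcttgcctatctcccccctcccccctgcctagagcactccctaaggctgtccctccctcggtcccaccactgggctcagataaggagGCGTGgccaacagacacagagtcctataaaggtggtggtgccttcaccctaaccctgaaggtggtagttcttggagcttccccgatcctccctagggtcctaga
Neurl3 (chr1:36273376-36273675, minus strand): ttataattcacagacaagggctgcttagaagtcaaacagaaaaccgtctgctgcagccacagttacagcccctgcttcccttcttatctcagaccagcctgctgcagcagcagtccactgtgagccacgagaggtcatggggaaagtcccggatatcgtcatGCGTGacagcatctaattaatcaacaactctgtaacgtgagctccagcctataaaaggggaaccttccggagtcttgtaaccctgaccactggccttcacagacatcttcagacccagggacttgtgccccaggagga
Crlf3 (chr11:80080942-80081241, minus strand): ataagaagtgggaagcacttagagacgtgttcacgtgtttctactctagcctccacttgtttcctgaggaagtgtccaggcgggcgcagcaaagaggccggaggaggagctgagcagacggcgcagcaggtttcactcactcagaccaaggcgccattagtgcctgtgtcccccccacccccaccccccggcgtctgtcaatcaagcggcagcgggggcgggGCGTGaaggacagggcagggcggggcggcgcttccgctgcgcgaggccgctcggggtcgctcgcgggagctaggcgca
Ahrr (chr13:74292282-74292581, minus strand): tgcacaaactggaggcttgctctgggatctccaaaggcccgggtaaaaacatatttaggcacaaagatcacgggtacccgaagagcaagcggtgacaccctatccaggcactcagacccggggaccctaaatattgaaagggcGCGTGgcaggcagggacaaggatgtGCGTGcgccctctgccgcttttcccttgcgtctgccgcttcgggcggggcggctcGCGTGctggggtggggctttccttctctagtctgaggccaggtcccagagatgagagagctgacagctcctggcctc
The Cyp1a1 window holds 1 copy, beginning 54 bases before the start, and those of Neurl3 and Crlf3 hold 1 copy each, at 88 and 28 bases before it. The Ahrr window holds 3 copies, at 107, 82 and 27 bases before the start. Windows were found for 23 of the 31 genes looked up, and most are not shown. Among other AhR targets, those of Cyp1b1 and Tiparp hold 1 copy each, and those of Cyp1a2, Nqo1 and Ugt1a6a hold 0. The motif is present in 10622 of the 32817 promoter windows of this length (32.4%), so a copy in a window is common. A match describes the reference letters only and is neither a bound site nor a cause of a change.

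Cyp1a1 was low in each vehicle kidney, at 1.15, 4.00, 1.60, 3.42 and 1.70 CPM, from 20 to 79 reads. At 0.3 µg/kg the 5 kidneys measured 29.1, 13.9, 29.7, 26.1 and 24.9 CPM, from 318 to 543 reads. The groups did not overlap, and the lowest treated kidney, replicate 2, still lay above all vehicle kidneys. The log2 fold change was 3.38 ± 0.26 (SE), the fold change lay between 7.20 and 15.1 (95% interval), and the adjusted p was 4.79e-10.

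Across the lower doses, Cyp1a1 measured 2.16 ± 1.07 CPM at 0.03 µg/kg and 5.51 ± 1.11 CPM at 0.1 µg/kg (SD, n = 5 each). At 1 µg/kg it measured 99.4 ± 12.1 CPM. The treated kidneys at 0.3 µg/kg therefore lay above every kidney at 0.03 and 0.1 µg/kg and below every kidney at 1 µg/kg. Against vehicle, the log2 fold change was -0.10 ± 0.32 at 0.03 µg/kg (adjusted p = 0.986) and 1.23 ± 0.29 at 0.1 µg/kg (adjusted p = 0.877), neither of which passed the test. These comparisons share the vehicle libraries with the one at 0.3 µg/kg.

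**Figure D1:**
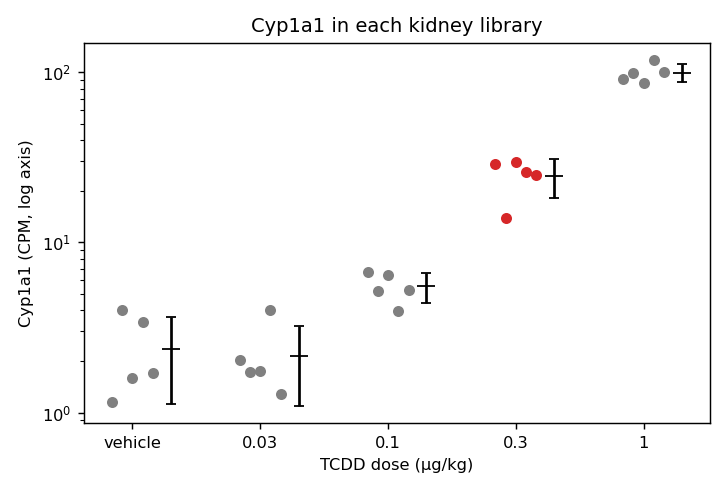
Cyp1a1 in each kidney library (points, CPM on a log axis) for vehicle and TCDD at 0.03, 0.1, 0.3 (red) and 1 µg/kg, with bars for the mean ± SD of 5 libraries. The 5 kidneys at 0.3 µg/kg lie between 13.9 and 29.7 CPM, above all kidneys at lower doses and below all at 1 µg/kg.

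A comparison of the same treated kidneys with the 10 kidneys at 0.03 and 0.1 µg/kg asks whether the call depends on the vehicle libraries. Cyp1a1 was again the only gene called (0.00577% of 17345), with a log2 fold change of 2.82 ± 0.20, which is 7.07-fold, and an adjusted p of 2.86e-11. No gene was called lower there by edgeR with all libraries, against 397 at an unadjusted p under 0.05, and DESeq2 called 1 (Cdh3, a cadherin). Counts there were 2 without the 0.3 µg/kg replicate 4, 3 without its replicate 5, where edgeR also called Cdh3 lower (log2 fold change -0.81, adjusted p = 0.0110), and 2 without the 0.1 µg/kg replicate 5, and Cyp1a1 was among the calls each time.

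Gene counts summed to 16569809 to 23203466 in the treated libraries and to 15746356 to 23738125 in the vehicle libraries, within 15278423 to 25575317 over the series. Of 7 technical measures, such as the mitochondrial share and the shares of unmapped and multi-mapping reads, none differed between the groups, with a lowest two-sided exact permutation p of 0.111 (adjusted 0.400, smallest possible 0.00794). Vehicle replicates 1 and 2 stood apart from the other 3 vehicle kidneys: markers of the proximal tubule S3 segment summed to 4803 and 5147 CPM in them and to 7688 to 8133 CPM in the others. Markers of the S1-S2 segments went the other way, at 31118 and 31322 CPM against 24843 to 25392 CPM. On the first principal component of the 10 libraries (17.4% of the variance) these 2 lay at -36.4 and -34.9, treated replicate 1 at 59.4, and the remaining 7 between -1.36 and 5.31. Without vehicle replicates 1 and 2, Cyp1a1 remained the only gene called, with a log2 fold change of 3.50. Without treated replicate 1, the farthest out on that component, it was also the only call, at 3.32. Several list medians below are repeated without those vehicle libraries and not without treated replicate 1.

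Other AhR targets in the list of this pathway did not pass the test. Of its 19 members 17 had enough reads to be tested, 10 had a positive log2 fold change and 1, Cyp1a1, was called; the list's median log2 fold change was 0.04, beside 0.01 over all genes. Aldh3a1, an aldehyde dehydrogenase, measured 1.21, 1.32, 1.04, 0.855 and 0.567 CPM in the vehicle kidneys and 2.41, 2.10, 0.882, 2.29 and 2.43 CPM in the treated ones. Treated replicate 3 lay within the vehicle range and the other 4 above it, and the log2 fold change was 1.01 ± 0.35 (adjusted p = 0.899). Against the pooled 0.03 and 0.1 µg/kg kidneys it was 0.71 ± 0.29.

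Cyp1b1, a P450 related to Cyp1a1, measured 21.4, 24.1, 20.0, 24.3 and 25.6 CPM with vehicle and 19.9, 23.5, 36.2, 21.3 and 35.4 CPM at 0.3 µg/kg. Treated replicates 3 and 5 were high and the others lay within or below the vehicle range, with a log2 fold change of 0.25 ± 0.15. Cyp1a2, the other member of that P450 subfamily, was at or under 0.395 CPM in every vehicle kidney and in 4 treated ones, and at 2.29 CPM in treated replicate 4. Its log2 fold change of 1.76 ± 1.28 turned to -0.72 without that library, so its direction rests on 1 kidney.

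The repressor gene Ahrr measured 0.519, 0.608, 1.08, 1.05 and 2.27 CPM with vehicle and 0.495, 2.54, 0.588, 0.927 and 0.916 CPM at 0.3 µg/kg. The groups overlapped almost wholly, with a log2 fold change of 0.04 and a 95% interval from -0.78 to 0.86. That value was -0.57 without treated replicate 2 and -0.37 without vehicle replicates 1 and 2. Tiparp spanned 24.2 to 34.7 CPM with vehicle and 27.2 to 32.7 CPM at 0.3 µg/kg, with a log2 fold change of 0.06 ± 0.10. Nqo1 had 0.18 ± 0.16, and -0.02 without vehicle replicates 1 and 2, which were its lowest kidneys at 38.8 and 35.8 CPM. For Ugt1a6a, a glucuronosyltransferase, the log2 fold change was -0.60 ± 0.30, and its counts are uncertain because 50.3% of its exonic bases belong to other genes of that strand too.

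**Figure D2:**
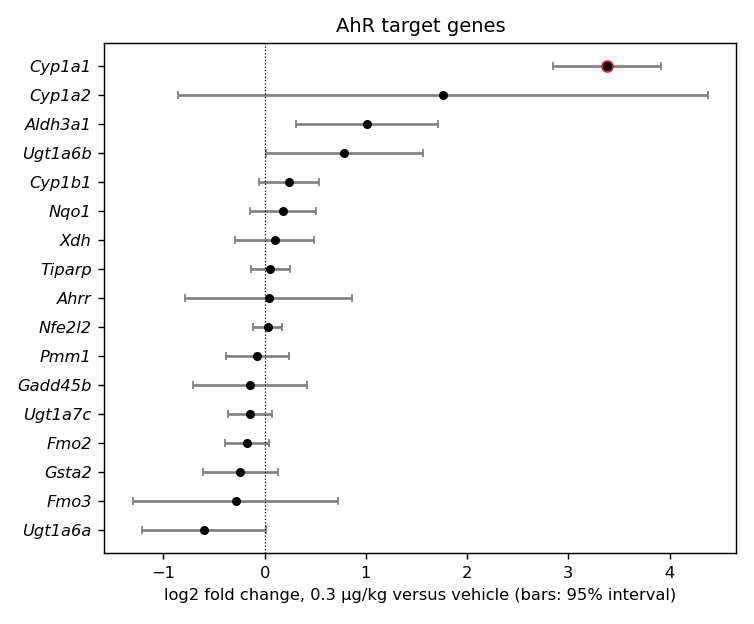
Log2 fold change at 0.3 µg/kg versus vehicle of the 17 AhR target genes tested (points), with 95% intervals from edgeR (bars) and a dotted line at 0. Cyp1a1 (red ring) lies at 3.38, and Aldh3a1 at 1.01 did not pass the test.

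Genes of the receptor itself and of its partners showed no call. Among 15 such genes, 6 had a positive log2 fold change and the median was -0.01. Ahr measured 11.3, 11.4, 7.99, 11.0 and 8.89 CPM with vehicle and 7.98, 7.10, 8.41, 7.04 and 9.53 CPM at 0.3 µg/kg. Of the treated kidneys 3 lay below all vehicle kidneys, and the log2 fold change was -0.34 ± 0.16 (adjusted p = 0.920). It was -0.12 against the pooled lower doses. Arnt measured 31.6 to 50.3 CPM with vehicle and 43.4 to 48.3 CPM when treated, with a log2 fold change of 0.05 ± 0.09. Relb, an NF-κB subunit that can pair with AhR, had 0.21 ± 0.19, and the chaperone gene Hsp90ab1 had 0.02 ± 0.08.

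The list of targets of NRF2, the transcription factor of the oxidative stress response, also held no called gene among 19 tested, with 9 positive and a median of -0.00. Gclm, a subunit of the enzyme that limits glutathione synthesis, measured 287, 279, 431, 400.1 and 405 CPM with vehicle and 426, 445, 444, 395 and 440 CPM at 0.3 µg/kg. The low kidneys were vehicle replicates 1 and 2, and the other 3 vehicle kidneys lay within the treated range. The value for Gclm was 0.25 ± 0.09 against vehicle and 0.03 against the pooled lower doses, as log2 fold changes. Gclc, the partner subunit, had 0.41 ± 0.17 and 0.04 in the same 2 comparisons.

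Enzymes of drug metabolism outside the AhR list gave no call either. Of 16 tested CYP2 and CYP3 enzymes 8 had a positive log2 fold change, with a median of -0.00. Cyp2j5, which oxidises arachidonic acid in the kidney and had the most reads of that list, had -0.01 ± 0.08. Of 22 conjugation enzymes 10 were positive, with a median of -0.02, and the thiopurine methyltransferase Tpmt had 0.14 ± 0.09.

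Over all genes, the fold changes were centred near 0, with 9029 of 17345 genes (52.1%) positive. At an unadjusted p under 0.05, 510 genes were higher (2.94%) and 398 lower, where a uniform distribution of p-values would give 867 in both directions together. The treated and vehicle kidneys did not overlap for 66 genes that were higher (0.381%) and for 66 that were lower (0.381%). With labels assigned at random, 5 kidneys separate fully from 5 others with a probability of 0.00794, counting both directions. The shares of both directions do not exceed it, so groups that do not overlap are no evidence of a change by themselves. Apart from Cyp1a1 the lowest adjusted p was 0.211. The median standard error of a log2 fold change was 0.15, and the 95% interval lay within ±1 for 74.9% of genes. This share was 98.9% among genes of 10 to 100 CPM and 2.79% among genes under 1 CPM; for genes this low, most intervals include changes of 2-fold or more.

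**Figure D3:**
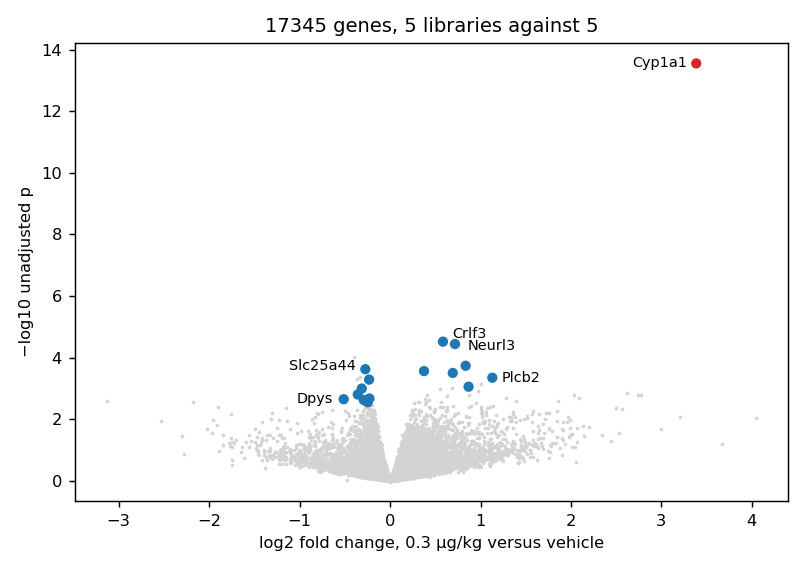
Log2 fold change at 0.3 µg/kg versus vehicle (x axis) against −log10 of edgeR's unadjusted p (y axis) for 17345 genes. Cyp1a1 (red) stands alone at 3.38, and the blue points are the other genes with non-overlapping groups and the lowest p in each direction, none of which passed the test.

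Neurl3, which encodes an E3 ubiquitin ligase of the neuralized family, was not called against vehicle by edgeR. It measured 8.93, 7.60, 8.77, 5.85 and 7.99 CPM with vehicle and 13.6, 17.0, 11.4, 9.58 and 12.7 CPM at 0.3 µg/kg. Every treated kidney lay above every vehicle kidney. The log2 fold change was 0.72 ± 0.16 (adjusted p = 0.211 with edgeR and 0.0397 with DESeq2), so its call against vehicle depended on the tool. Against the pooled lower doses it was 0.63 ± 0.13 (adjusted p = 0.164 with edgeR and 0.0230 with DESeq2). In that comparison edgeR called Neurl3 without the 0.3 µg/kg replicate 4 (adjusted p = 0.0341). It also did so without the 0.1 µg/kg replicate 5 (adjusted p = 0.0217). Against vehicle, which these comparisons share, Neurl3 had 0.03 at 0.03 µg/kg, 0.14 at 0.1 µg/kg and 1.19 at 1 µg/kg.

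Crlf3, a gene named for its likeness to cytokine receptors, had the same adjusted p-values in both tools, with 9.45, 10.4, 11.9, 11.2 and 10.4 CPM with vehicle and 15.7, 16.8, 13.8, 15.4 and 18.3 CPM at 0.3 µg/kg. The groups did not overlap, and the log2 fold change was 0.58 ± 0.13. Its value was also 0.58 at 0.03 µg/kg, 0.47 at 0.1 µg/kg and 0.41 at 1 µg/kg against the shared vehicle libraries. Against the pooled lower doses it was 0.06 ± 0.11.

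Beyond these, the rule for named genes gave 5 more higher and 8 lower genes whose groups did not overlap, all with an adjusted p of at least 0.641. Higher were 0610040F04Rik at 0.83 ± 0.21, the GABA-B receptor subunit Gabbr1 at 0.37 ± 0.10, Arhgap33 at 0.69 ± 0.18, the phospholipase C gene Plcb2 at 1.13 ± 0.30 and Herc6, a HERC-family gene known to respond to interferon, at 0.87 ± 0.24. Against the pooled lower doses these were 0.25, 0.08, 0.34, 0.20 and 0.57 in the same order. Herc6 measured 1.61, 3.34, 3.97, 2.50 and 3.97 CPM with vehicle and 6.25, 4.56, 7.24, 4.76 and 5.54 CPM at 0.3 µg/kg, with the highest vehicle kidney below the lowest treated one.

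Among the lower genes, the mitochondrial carrier Slc25a44 measured 62.1, 62.8, 57.4, 57.7 and 60.8 CPM with vehicle and 49.7, 49.3, 48.8, 53.5 and 47.5 CPM at 0.3 µg/kg. The groups did not overlap, and the log2 fold change was -0.27 ± 0.07 (adjusted p = 0.683). Dpys, which encodes dihydropyrimidinase of pyrimidine breakdown, measured 20.65 to 25.7 CPM with vehicle and 14.2 to 20.64 CPM when treated, with a log2 fold change of -0.51 ± 0.16. The autophagy gene Atg14 had -0.36 ± 0.11, the glycerol-3-phosphate acyltransferase gene Gpat4 -0.23 ± 0.06, Tmem186 -0.31 ± 0.09, Gpr180 -0.23 ± 0.07, the phosphatase subunit gene Ppp4r1 -0.29 ± 0.09 and the mRNA decay factor Patl1 -0.25 ± 0.08. Against the pooled lower doses Slc25a44 was -0.20, Dpys -0.19 and Atg14 -0.30. Fcamr, a receptor for the constant part of IgA and IgM, also had groups that did not overlap, at 30.8 to 41.1 CPM with vehicle and 26.1 to 29.9 CPM when treated. Its log2 fold change was -0.37 ± 0.12 against vehicle and 0.00 against the pooled lower doses, and against the shared vehicle libraries it was -0.38 at 0.03 µg/kg and -0.35 at 0.1 µg/kg.

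Genes that interferon-gamma induces, most of them GTPases of the Gbp and Irg families that act against intracellular pathogens, were described as a list of 21. All 21 had a positive log2 fold change at 0.3 µg/kg, with a median of 0.55, and none passed the test (lowest adjusted p 0.899), while 7 had an unadjusted p under 0.05. Over all 17345 genes the median was 0.01, and 2.94% were higher at an unadjusted p under 0.05. The median of the list was 0.15 at 0.1 µg/kg and 1.65 at 1 µg/kg against the shared vehicle libraries, and 0.48 against the pooled lower doses. The summed level was 166.9, 160.3, 141.8, 153.4 and 174.0 CPM in the vehicle kidneys and 219.2, 236.1, 263.4, 167.5 and 165.3 CPM at 0.3 µg/kg. Treated replicates 1 to 3 lay above all vehicle kidneys, and replicates 4 and 5 lay within the vehicle range.

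The labels number the samples of the series, and treated replicates 1 to 3 and vehicle replicates 1 to 3 carry numbers up to 27 while the others carry numbers from 28. Within the first set the summed level of the 21 genes was 1.53 times that of vehicle and 21 members were higher. Within the second set it was 1.02 times, and 14 members were higher. Cyp1a1 was 10.8 times and 9.95 times that of vehicle within the same 2 sets. Whether the sample number has a part in the difference was not tested. With a covariate for the 2 sets of numbers the list's median was 0.55. Treated and vehicle libraries are split alike over the sets, so that term could hardly move the median and does not address the difference.

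Among single members, Iigp1, an interferon-inducible GTPase, had 0.82 ± 0.38, and Gbp4 had 0.68 ± 0.25, from 6.70 to 10.7 CPM in the group means. Gbp2 had 0.48 ± 0.18 and Gbp3 0.56 ± 0.23. Irgm1, the member with the most reads, had 0.11 ± 0.21, and the transcription factor Irf1 had 0.26 ± 0.18. Gbp2b had few reads in vehicle kidneys, with 0, 1, 1, 1 and 1 reads, and had 8, 9, 4, 0 and 11 reads at 0.3 µg/kg. Treated replicate 4 had no read and the other 4 treated kidneys more than any vehicle kidney. Its mean of 0.326 CPM was 2.01 times the level of 3 reads per vehicle library. That ratio allows for counting error in the vehicle reads only. It covers neither the error of the treated mean nor the spread between kidneys, and Gbp2b did not pass the test. Tgtp1 and Tgtp2, at 0.49 and 0.57, are near-identical copies whose reads may be split uncertainly.

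Antigen presentation genes were described in the same way. All 18 members of the MHC class I list were positive, with a median of 0.13 (16 of 18 and 0.12 when scaled by library size alone) and a largest value of 0.61 ± 0.26 for the immunoproteasome subunit Psmb8. Without vehicle replicates 1 and 2, 16 of 18 were positive and the median was 0.10. Against the pooled lower doses 12 of 18 were positive, with a median of 0.06. At 0.1 µg/kg against the shared vehicle libraries 15 of 18 were positive, with a median of 0.09. Summed levels were 1052 to 1165 CPM with vehicle and 1198, 1219, 1231, 1248 and 1060 CPM at 0.3 µg/kg, with replicate 5 within the vehicle range. Within the lower sample numbers the sum was 1.13 times that of vehicle, and 17 of 18 members were higher. Within the higher ones it was 0.998 times, and 5 of 18 were higher. H2-D1 and H2-K1, classical class I heavy chains, had 0.09 ± 0.16 and 0.11 ± 0.19.

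Of 10 tested MHC class II genes 9 were positive, with a median of 0.29. Their summed level was 314.5, 327.7, 289.7, 283.0 and 317.7 CPM with vehicle and 379.5, 404.3, 386.7, 391.9 and 294.1 CPM when treated. Replicate 5 was again within the vehicle range and the other 4 treated kidneys lay above it. The list's median was 0.22 at 0.1 µg/kg against the shared vehicle libraries, and 0.15 at 0.3 µg/kg against the pooled lower doses. The class II chain H2-Aa had groups that did not overlap, at 50.8 ± 1.98 and 65.4 ± 7.10 CPM (SD, n = 5 each) and a log2 fold change of 0.36 ± 0.17. Cd74, the invariant chain, had 0.27 ± 0.28, and the class II transactivator Ciita 0.20 ± 0.28. The type I interferon list had 22 of 30 positive with a median of 0.15, and its member Ifit1, which binds viral RNA, had 0.56 ± 0.25. That list's median was 0.02 at 0.1 µg/kg against vehicle and 0.06 at 0.3 µg/kg against the pooled lower doses.

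**Figure D4:**
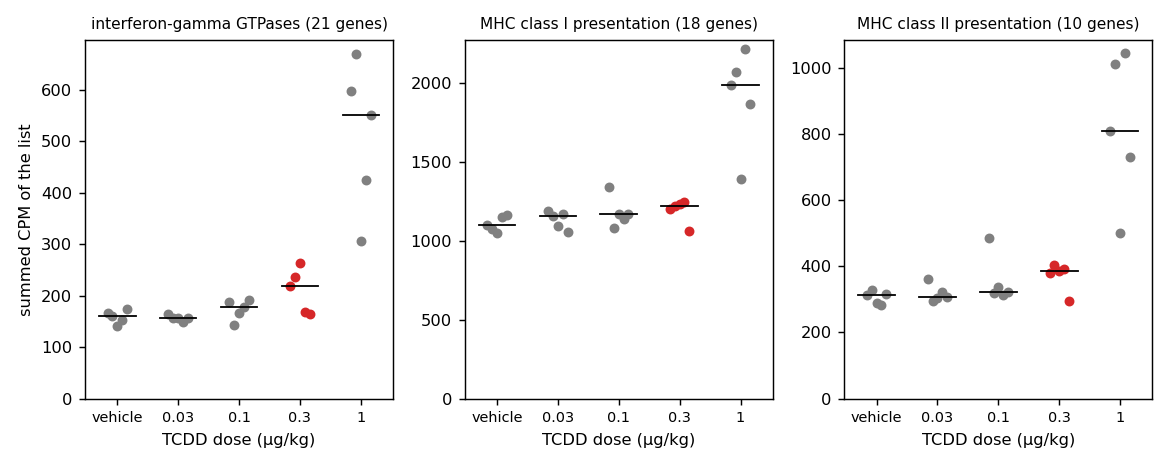
Summed CPM per library (points) and median (line) of the interferon-gamma, MHC class I and MHC class II lists for vehicle and TCDD at 0.03, 0.1, 0.3 (red) and 1 µg/kg, on axes that start at 0. For the interferon-gamma list the 5 kidneys at 0.3 µg/kg span 165.3 to 263.4 CPM, overlapping vehicle, and those at 1 µg/kg span 306.7 to 669.6 CPM.

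Markers of immune cells, which also express MHC class II genes, were measured beside these lists. In bulk tissue, fewer or more cells of a type cannot be told apart from less or more RNA per cell. Of 26 macrophage and myeloid markers 19 were positive, with a median of 0.10. Their sum ran from 163.2 to 224.8 CPM with vehicle and from 222.8 to 233.5 CPM when treated, so the treated kidneys lay near or above the top of the vehicle range. The lowest vehicle kidneys were replicates 2 and 1, at 163.2 and 198.1 CPM. Kidneys at 0.03 µg/kg had sums of 223.4 to 247.6 CPM, and those at 0.1 µg/kg 200.3 to 286.8 CPM. Single markers ran from -0.61 to 1.03. With edgeR 3 were higher and 0 lower at an unadjusted p under 0.05, beside 2.94% and 2.29% of all genes. The macrophage gene Adgre1 at -0.08 and the complement gene C1qa at -0.01 were among the negative members. Lcp1, an actin-bundling protein of leukocytes, measured 23.6, 20.3, 24.9, 23.0 and 22.9 CPM with vehicle and 30.6, 25.0, 26.4, 25.1 and 30.4 CPM when treated. The groups were just separated, with a log2 fold change of 0.26 ± 0.08 (adjusted p = 0.899), and 0.11 against the pooled lower doses.

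Of 21 tested T, NK and B cell genes 13 were positive, with sums of 18.6 to 23.0 CPM with vehicle and 17.3 to 26.5 CPM when treated. The T cell receptor gene Trac measured 1.27, 0.203, 0.950, 1.84 and 1.87 CPM and 1.92, 2.37, 2.12, 2.35 and 2.52 CPM in the 2 groups. All treated kidneys lay above all vehicle kidneys for Trac, with a log2 fold change of 0.89 ± 0.39 (adjusted p = 0.912). The T cell gene Cd3g had -0.99 ± 0.62. The part of immune cell numbers in the interferon and MHC values was not tested.

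The next dose up was 1 µg/kg. Between 1 and 0.3 µg/kg, 37 genes were called, all higher at 1 µg/kg, which is 0.213% of 17345. No gene was called lower by edgeR, DESeq2 or limma-voom, and 213 were lower at an unadjusted p under 0.05. Cyp1a1 was 4.03-fold higher at 1 µg/kg (log2 fold change 2.01 ± 0.21, adjusted p = 1.17e-06). Of the 37 genes, 9 were in the MHC class I list, 8 in the interferon-gamma list, 5 in the MHC class II list, 2 in the type I interferon list and 2 in the macrophage list. B2m, the light chain of class I molecules, measured 214, 222 and 412 CPM in the means of vehicle, 0.3 and 1 µg/kg, and Cd74 114, 138 and 335 CPM.

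The number of genes called between these doses varied with the libraries used, being 10 without the 0.3 µg/kg replicate 4 or its replicate 5 and 19 without its replicate 1. It was 20, 21, 15 and 24 without the 1 µg/kg replicates 1, 2, 4 and 5. Besides Cyp1a1, 88 genes were called at 1 µg/kg against vehicle. Their median log2 fold change was 1.13 at 1 µg/kg, 0.34 at 0.3 µg/kg and 0.13 at 0.1 µg/kg against the shared vehicle libraries, and 0.17 at 0.3 µg/kg against the pooled lower doses. None of the 88 was called at 0.3 µg/kg, where 28 had an unadjusted p under 0.05, beside 908 of all 17345 genes. Against the pooled lower doses 17 of the 88 had one, beside 918 of 17345. The 88 were picked with the same vehicle libraries.

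Markers of the nephron segments carried no call, and several list medians followed vehicle replicates 1 and 2. Of 17 S1-S2 proximal tubule genes, where most filtered solute is taken back, 1 was positive and the median was -0.18, and it was 0.01 without those libraries. Slc22a8, an organic anion transporter, had -0.26 ± 0.12. Of 13 genes of the S3 segment 11 were positive with a median of 0.22, which was -0.03 without those libraries. Leaving them out was chosen after their S1-S2 and S3 sums were seen. The shift of these medians was therefore set by that choice and tests nothing. Aadat, an aminotransferase of the kynurenine pathway, had 0.34 ± 0.15, and Cyp7b1, an oxysterol hydroxylase, 0.64 ± 0.42. The summed S3 level was 7280 to 8045 CPM in the treated kidneys, beside 7688 to 8133 CPM in vehicle replicates 3 to 5.

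The thick ascending limb, which makes uromodulin and Egf, had 8 of 9 genes positive with a median of 0.13, and 1 of 9 positive with a median of -0.11 without vehicle replicates 1 and 2. Podocyte genes were positive in 11 of 11 with a median of 0.12 (10 of 11 when scaled by library size alone), and in 6 of 11 with a median of 0.00 without them. Cdkn1c, a cell cycle inhibitor of podocytes, had 0.38 ± 0.16. The distal convoluted tubule list had a median of -0.06, principal cells -0.02, intercalated cells -0.08 and endothelium -0.05. Without vehicle replicates 1 and 2 the distal convoluted tubule turned to 0.04 (8 of 10 positive), while principal cells had -0.10 (1 of 10 positive), intercalated cells -0.08 and endothelium -0.10. The intercalated cell exchanger Slc26a4 (pendrin) had groups that did not overlap, at 116 to 133 CPM with vehicle and 98.8 to 115 CPM when treated, with a log2 fold change of -0.19 ± 0.08 and -0.03 against the pooled lower doses. Atp12a, a proton pump subunit, was under 1 CPM in all 10 kidneys, with 0.53 ± 0.75.

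**Figure D5:**
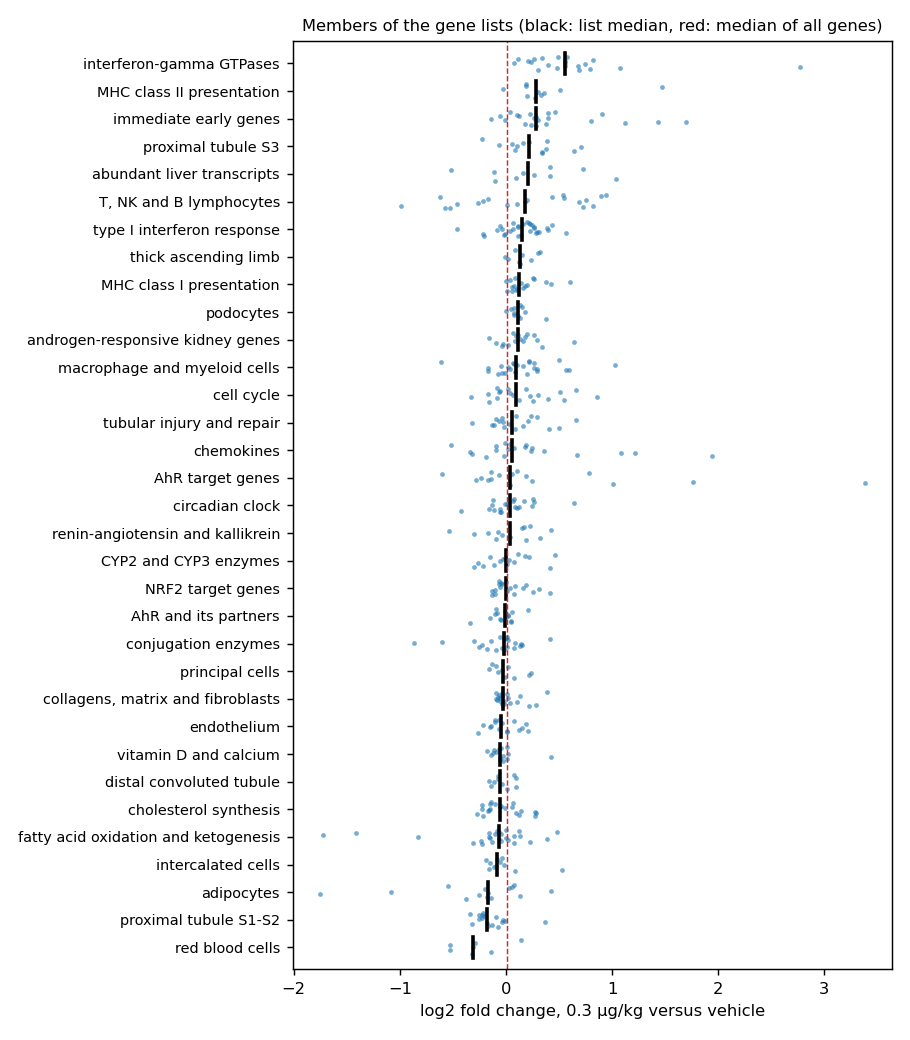
Log2 fold change at 0.3 µg/kg versus vehicle of each tested member (points) of 33 gene lists (the adrenal cortex list is left out), with the list's median (black) and the median of all genes, 0.01 (red dashed line). The interferon-gamma list has the highest median, 0.55, and red blood cell genes the lowest, -0.31; apart from Cyp1a1 no member passed the test.

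Genes of tissue injury and repair gave no call. Havcr1 (KIM-1), a marker of injured proximal tubule, measured 0.922, 0.355, 1.12, 2.30 and 1.47 CPM with vehicle and 1.48, 0.570, 1.12, 1.05 and 1.37 CPM at 0.3 µg/kg. The groups overlapped, with a log2 fold change of -0.13 ± 0.48 that was 0.20 without vehicle replicate 4. Lcn2 (NGAL), another injury marker, spanned 0.861 to 2.72 CPM and 1.76 to 2.47 CPM, with 0.20 ± 0.32. Of the 18 injury and repair genes 10 were positive with a median of 0.06, and the p53 target Cdkn1a had 0.50 ± 0.23. Of 20 genes of collagens, matrix and fibroblasts 8 were positive with a median of -0.03 (11 of 20 with 0.03 without vehicle replicates 1 and 2), and Col4a1, of the basement membrane, had -0.05 ± 0.08. Of 20 cell cycle genes 13 were positive with a median of 0.09. Ccnd1, cyclin D1, did not overlap between groups, at 89.5 to 117 CPM with vehicle and 76.3 to 89.4 CPM when treated. Its log2 fold change was -0.33 ± 0.14 (adjusted p = 0.912), and 23.4% of its exonic bases are shared with a gene on the other strand, which unstranded counts cannot separate.

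Lists of metabolism, hormones and rhythm had medians between -0.07 and 0.12. Of 26 genes of fatty acid oxidation and ketogenesis 9 were positive, with a median of -0.07. Cholesterol synthesis had 8 of 21 positive with a median of -0.06, in which Hmgcs1 had 0.28 ± 0.14 and Fdft1 -0.27 ± 0.12. The circadian clock list had 11 of 20 positive with a median of 0.04, and Per2 had 0.26 ± 0.14. Vitamin D and calcium genes had 4 of 15 positive with a median of -0.05, which turned to 0.01 (9 of 15 positive) without vehicle replicates 1 and 2. Androgen-responsive kidney genes had 13 of 17 positive with a median of 0.12, which was 0.01 without them. The renin-angiotensin and kallikrein list had 7 of 13 positive and a median of 0.03, which turned to -0.09 (3 of 13 positive) without them.

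Immediate early genes, which respond within minutes to stimuli and handling, were positive in 19 of 22, with a median of 0.28 and a sum of 293.3 to 328.3 CPM with vehicle and 323.3 to 415.7 CPM when treated. Against the pooled lower doses the median was -0.15, and it turned to 0.12 without the 0.03 µg/kg replicate 4. The sum in that kidney was 966.1 CPM, beside 307.8 to 419.9 CPM in the other 9 kidneys at 0.03 and 0.1 µg/kg. The mRNA-destabilising factor Zfp36 had 0.46 ± 0.25 and the phosphatase Dusp1 0.38 ± 0.27. Chemokines had 12 of 20 positive with a median of 0.06.

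Markers of neighbouring tissues and blood were measured as well. Adipocyte genes had 5 of 14 positive with a median of -0.17, and 13 of 14 with a median of 0.27 without vehicle replicates 1 and 2. Abundant liver transcripts had 7 of 10 positive with a median of 0.21, and of 10 adrenal cortex genes only 4 had enough reads to be tested. Red blood cell genes were positive in 1 of 7 with a median of -0.31, and -0.27 without vehicle replicates 1 and 2. The beta globin Hbb-bs measured 254, 280.0, 221, 281 and 343 CPM with vehicle and 209, 183, 195, 212 and 156 CPM at 0.3 µg/kg. Each treated kidney lay below each vehicle kidney, with a log2 fold change of -0.53 ± 0.39 (adjusted p = 0.935), and of -0.54 against the pooled lower doses. The amount of blood left in the kidneys was not tested.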

How the data were processed

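Transcripts were measured by RNA sequencing of about 100 mg of right kidney, from RNA with an integrity number of at least 7, with paired-end reads of 150 bp, per the labels. The authors deposited read counts per gene, with whole numbers in 1 unstranded and 2 stranded columns, and the unstranded counts were used. Without strand, overlapping genes cannot be told apart. FastQC 0.11.7, Trimmomatic 0.39, STAR 2.7.3a and DESeq2, and the builds GRCm39 and mm10, are named per the submitters' processing notes without their roles, and the annotation is not given in the sources used here. Of 55359 gene identifiers 52083 were named with GENCODE M21, and those without a name held 0.663% of gene counts. Summary lines such as unmapped reads were not used in sizes or tests.

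Counts were analysed in R 4.3.3 with edgeR 4.0.16. Genes were filtered by filterByExpr (minimum count 10), scaled with TMM factors and fitted with glmQLFit (robust) over all 40 libraries in 8 dose groups, without covariates, since the labels give no batch. Contrasts were 0.3 µg/kg versus vehicle, 0.3 µg/kg versus the mean of 0.03 and 0.1 µg/kg, and 1 versus 0.3 µg/kg. The p-values were adjusted by the Benjamini-Hochberg method over the 17345 genes. Each standard error was derived as the fold change over the root of F, with a prior count of 0.125, and the biological coefficient of variation was 17.1%. P-values set a difference between groups against the spread within dose groups, estimated over all 40 libraries. The code was tested on simulated counts.

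The members and the 34 gene lists were chosen with earlier results of these data known. Named genes were those called, a fixed list of 17, the 8 higher and 8 lower genes with non-overlapping groups, a mean of at least 1 CPM and the lowest p, and from each list the lowest p in each direction and the highest CPM; other list members are named after their values were seen. The sequences are RefSeq promoters on GRCm38.p6. Alternatives were DESeq2 1.42.0 and its size factors, limma-voom (limma 3.58.1), library size alone, other filters, fewer groups, sample number as a covariate, and leaving out libraries. A few genes met by the rule are not reported here.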

Additional observations from a re-analysis of the deposited data

Results flagged for a closer look

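In each group of 5 libraries, the highest and lowest kidney of the 115 named genes and of the technical measures were checked for a gap to the next kidney of more than 0.71 of the group's range. Of 244 groups checked, 17 had such a kidney, and chance gives about 1 group in 20. Among AhR targets, Cyp1a2 was at 2.29 CPM in the 0.3 µg/kg replicate 4 (next 0.175), Ahrr at 2.54 CPM in replicate 2 (next 0.927) and Aldh3a1 at 0.882 CPM in replicate 3 (next 2.10). Also at 0.3 µg/kg, replicate 4 stood apart for Arhgap33 (4.76 CPM, next 6.23), the glutathione transferase Gsta3 (103 CPM, next 86.9) and Slc22a8 (664 CPM, next 609.6). Replicate 3 stood apart for the endothelial genes Ehd3 (44.2 CPM, next 32.9) and Kdr (79.9 CPM, next 62.6). Replicate 1 was low for the TGF-beta receptor Tgfbr2 (83.5 CPM, next 99.2) and the HDL receptor Scarb1 (16.3 CPM, next 19.0), and replicate 5 was high for Zfp36 (59.4 CPM, next 34.8). In vehicle kidneys, replicate 5 was high for Dusp1 (55.1 CPM, next 32.9) and for Cyp24a1, which breaks down vitamin D (195 CPM, next 44.9). Vehicle replicate 3 was high for the chemokine Ccl28 (21.2 CPM, next 8.61) and replicate 1 for Fdft1 (46.7 CPM, next 36.5). Cyp21a1, a steroid hydroxylase of the adrenal cortex, was at 0.173 CPM in vehicle replicate 1 and at 0.124 CPM in the 0.3 µg/kg replicate 1, with 0 in the other kidneys of both groups; these are at most 3 reads, so no fold is given.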

How the results depend on the processing

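At 0.3 µg/kg versus vehicle the count of called genes was 1 under every alternative except DESeq2 (3, adding Neurl3 and Crlf3), also when each library was left out in turn (1 to 1). Cyp1a1 was called every time, with log2 fold changes of 3.22 to 3.68 and an adjusted p of 0.0139 when only the 10 libraries were fitted. Against the pooled lower doses the count was 4 with only the groups compared (adding Acmsd, Gm19950 and Hmgcs1), 3 with DESeq2 (adding Neurl3 and Cdh3) and 1 to 3 without single libraries. Between 1 and 0.3 µg/kg it was 62 with DESeq2, 20 with limma-voom and 10 to 51 without single libraries, against 37. The technical measures passing stayed at 0. Of 2133 values of the named genes under alternatives, 2096 kept direction and call, 2 passed the threshold (Neurl3 and Crlf3 with DESeq2) and 35 changed sign, in 16 genes. With limma-voom, Havcr1 was 0.035 and H2-DMb1 0.026. Leaving out vehicle replicates 1 and 2 together, an alternative chosen after seeing the data, gave Ahrr -0.37, Nqo1 -0.019, Atp12a -0.043 and Lcn2 -0.12. The other 29 came from leaving out single libraries, over which the log2 fold changes ran as follows: Cyp1a2 -0.72 to 2.41, Ahrr -0.57 to 0.47, Arnt -0.054 to 0.091, Atp12a -0.0074 to 1.32, Havcr1 -0.37 to 0.20, Hsp90ab1 -0.022 to 0.070, Cyp2j5 -0.037 to 0.021, Ugt3a2 -0.028 to 0.042, Rsad2 -0.14 to 0.0033, H2-DMb1 -0.17 to 0.072, Ier3 -0.27 to 0.0050, Kcnj1 -0.057 to 0.042, Egf -0.065 to 0.13 and Aqp2 -0.040 to 0.13. The causes were not tested. No paired analysis was possible because the labels give no replicate numbers. Genes under 1 CPM are limited by depth.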

Other observations

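Of the 37 genes called between 1 and 0.3 µg/kg, 10 were outside the lists, and 8 of these 10 had their lowest group mean with vehicle and their highest at 1 µg/kg. These were Apol7c, BC023105, Ifi47, Fcgr4, Mpeg1, Irf8, Plbd1 and Lgals3bp, and the genes described here were chosen after their values were seen. All 37 were called as higher at 1 than at 0.3 µg/kg, so that part of the order was fixed by the choice of genes. Apol7c, of the apolipoprotein L family, had means of 0.190 CPM with vehicle, 0.850 CPM at 0.3 µg/kg and 3.35 CPM at 1 µg/kg. Its log2 fold change was 1.99 ± 0.45 between 1 and 0.3 µg/kg (adjusted p = 0.0395) and 2.03 at 0.3 µg/kg against vehicle, where it was not called. BC023105 had means of 0.944, 2.24 and 10.03 CPM in the same order, with log2 fold changes of 2.16 ± 0.47 (adjusted p = 0.0321) and 1.24. Of the 37 genes, 5 had a lower mean at 0.3 µg/kg than with vehicle, namely Fyb, C3ar1, Adgre1, C1qa and H2-DMb1. The pair outside the lists was Fyb, an adaptor of leukocytes, at 1.62, 1.09 and 3.06 CPM, and C3ar1, the receptor of complement fragment C3a, at 1.35, 1.07 and 2.81 CPM, with log2 fold changes of -0.56 and -0.31 against vehicle, neither of which passed the test there.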
